A study of Mus musculus with 4 samples.

Results

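Npas4, Nr4a1, Nr4a2, Nr4a3, Egr1, Egr2, Egr3, Egr4, Nab2 and Srf are 10 genes of the transcription factor layer through which neurons turn electrical activity into new gene expression, and they were read here in the brain cortex of SAMP8 mice given TCQA or water. They were chosen by gene symbol, with the values of this same comparison already known, so their differences between the groups are a description and carry no test. They had 12 probe sets of the 22206 gene probe sets on the array. Each gene had 1 probe set except Egr3, which had 3, and its brightest probe set stands for it unless another is named. SAMP8 is an inbred mouse line with accelerated ageing and early loss of memory. All animals were males kept 1 to a cage for 4 months, starting at the age of 7 months. From the age of 11 months, the TCQA group had oral TCQA, a compound given in the labels only as this abbreviation, at 5 mg/kg daily over 1 month, and the control group had MilliQ water instead. Each group had 2 arrays, and nothing in the labels says that the 2 came from separate mice, so every spread given here may be partly technical. The values are log2 signals on a Clariom S array. A gene's signal can be compared between arrays, and the signals of different genes were not compared with each other.

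The genes belong to families with distinct roles. NPAS4 is a basic helix-loop-helix PAS factor that is induced by calcium entry in neurons, pairs with ARNT or ARNT2, and shapes the inhibitory synapses a neuron receives. The NR4A proteins are orphan nuclear receptors that bind DNA without a known natural hormone, and NR4A2 is also required for dopamine neurons. The EGR proteins are zinc finger factors, and EGR1 and EGR3 are known for their part in synaptic plasticity and memory. NAB2 is a corepressor that binds EGR proteins and is itself an EGR target, which makes it a feedback brake. SRF sits upstream: with its cofactors it binds CArG boxes in the promoters of early genes, beside CREB at cAMP response elements (CREs).

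The sequences just upstream of the transcript starts are shown first, because early genes of this kind are known targets of CREB and SRF. From RefSeq's table for GRCm38.p6, 12 windows of 8 of the genes were searched, each of the 250 bases before a start. Egr1 and Egr3 had no window here, and windows on the chromosome of Egr1 were not used. The counts over the 8 genes therefore say nothing about these 2. Both strands were searched for the full CRE (TGACGTCA), the CRE core (TGACG, which the full CRE contains), the CArG box, the EGR site (GCGNGGGCG), the NR4A element NBRE (AAAGGTCA) and the MEF2 site. In the windows below, capitals mark CRE cores, CArG boxes and EGR sites, read on either strand. The windows of Npas4 and Nr4a1 are shown because these genes had the lowest TCQA level relative to control, that of Nr4a3 because it shares its family and number of CRE cores with Nr4a1, and that of Srf for its CArG boxes.
Npas4 (GRCm38.p6, chr19:4989972-4990221, minus strand): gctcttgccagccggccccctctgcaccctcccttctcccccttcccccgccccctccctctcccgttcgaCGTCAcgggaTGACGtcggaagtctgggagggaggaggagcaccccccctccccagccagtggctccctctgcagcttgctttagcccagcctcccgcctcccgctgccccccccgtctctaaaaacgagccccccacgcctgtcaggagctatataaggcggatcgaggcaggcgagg
Nr4a1 (GRCm38.p6, chr15:101266596-101266845, plus strand): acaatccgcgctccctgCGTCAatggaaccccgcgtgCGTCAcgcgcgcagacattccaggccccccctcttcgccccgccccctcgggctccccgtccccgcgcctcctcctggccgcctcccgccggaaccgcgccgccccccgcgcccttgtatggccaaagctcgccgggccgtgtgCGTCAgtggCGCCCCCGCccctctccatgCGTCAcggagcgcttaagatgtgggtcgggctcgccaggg
Nr4a3 (GRCm38.p6, chr4:48045055-48045304, plus strand): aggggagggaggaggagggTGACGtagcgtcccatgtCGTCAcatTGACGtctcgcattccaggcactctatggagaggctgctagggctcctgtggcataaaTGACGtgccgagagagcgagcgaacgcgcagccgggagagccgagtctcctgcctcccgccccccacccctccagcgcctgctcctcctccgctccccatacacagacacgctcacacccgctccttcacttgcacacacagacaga
Srf (GRCm38.p6, chr17:46556163-46556412, minus strand): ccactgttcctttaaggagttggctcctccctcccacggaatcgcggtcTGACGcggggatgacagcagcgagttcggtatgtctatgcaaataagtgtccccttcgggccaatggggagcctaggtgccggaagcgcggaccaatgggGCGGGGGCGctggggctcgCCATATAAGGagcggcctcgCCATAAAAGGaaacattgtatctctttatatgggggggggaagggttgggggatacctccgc
Egr2, a stretch before the third listed start (GRCm38.p6, chr10:67537796-67537819, plus strand): tCCATATATGGgcagcgaCGTCAc

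A CRE core lay in the windows of 7 of the 8 genes, against 19.8% of all genes in the table. Nr4a1, Nr4a2 and Nr4a3 had 4 cores each, Npas4 and Egr4 had 2, Srf had 1, and Egr2 had 2 before each of 3 of its 5 listed starts. In Npas4 the cores began 179 and 169 bases before the start, on opposite strands. The full CRE was in 0 of the 8 genes (1.77% of all genes), and so were the NBRE (1.55%) and the MEF2 site (0.592%). CArG boxes lay upstream of Egr2 and Srf, 2 of the 8 genes against 1.62% of all genes. Srf had 2 of them, 82 and 62 bases before its start, so the gene for the factor that binds this box carries it too. In Egr2 the CArG box and a core lay together in the stretch shown. EGR sites were found in Nr4a1, Nr4a2 and Srf, 3 of the 8 genes against 5.33%. The window of Nab2 held none of the 6 motifs. A match shows only that these letters are in the window.

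**Figure D1:**
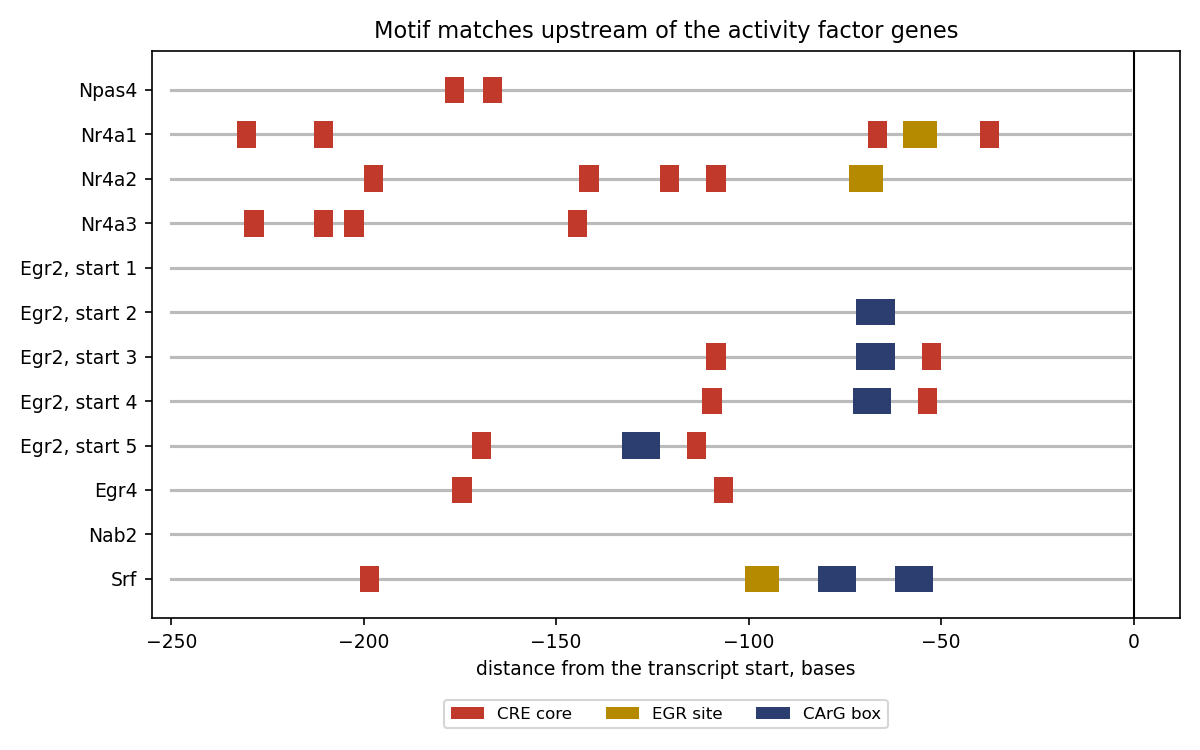
Each line is the window of 250 bases before 1 transcript start (x axis, distance from the start in bases), and coloured blocks are matches on either strand to the CRE core, the CArG box and the EGR site. Nr4a1, Nr4a2 and Nr4a3 carry 4 cores each, Srf carries 2 CArG boxes, and the lines of Nab2 and of the first Egr2 start are empty.

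Over all genes measured and present in that table, the medians of motif carriers were near 0. The median TCQA minus control difference was 0.0037 (log2) over 3675 probe sets of genes with a CRE core and 0.0051 over 241 with a CArG box, against 0.0077 over all 15737, leaving out the 10 genes themselves. Of all 15737, 25 were over 2-fold lower with TCQA and 44 over 2-fold higher. The counts were 8 and 5 of the 3675 with a CRE core, 3 and 0 of the 356 with a full CRE and 1 and 2 of the 1200 with an EGR site. They were 0 and 0 for the CArG box, the NBRE and the MEF2 site.

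Across genes, any 2 of the 4 arrays correlated at 0.991 to 0.993. No gene probe set passed limma with Benjamini-Hochberg adjustment (0 of 22206, smallest adjusted p = 0.697), and 1386 had an unadjusted p under 0.05. The cortical excitatory neuron markers Slc17a7 and Tbr1 were well above the negative control probe sets, whose medians on the 4 arrays were 7.17 to 7.32, at 16.03 to 16.68 and 13.26 to 13.90. Choroid plexus RNA differed within the groups: Ttr, the transthyretin gene that marks this epithelium, had TCQA signals of 12.23 and 14.97 and control signals of 7.49 and 16.42. The lowest signal was that of control replicate 1 for 5 of 6 choroid plexus and 4 of 5 astrocyte markers. The same held for 4 of 5 thalamic neuron, 4 of 6 meningeal fibroblast and 3 of 5 hippocampal neuron markers. In the other lists it held for 2 of 6 inhibitory neuron, 2 of 5 microglia, 1 of 4 oligodendrocyte and 1 of 5 endothelial markers. No excitatory or striatal neuron marker was lowest there. The share over all gene probe sets was not counted, so nothing is read from these marker counts. Most of the 10 genes were highest on control replicate 1, and whether this relates to the markers was not tested. Excitatory neuron markers had a lower mean with TCQA for 5 of 5 genes, with a median difference of -0.28, meningeal fibroblast markers a higher mean for 6 of 6 with a median of 0.51, and thalamic neuron markers a higher mean for 4 of 5 with a median of 0.67. The medians of the other 8 marker lists were -0.081 to 0.21. In cortex tissue fewer cells of a type and less RNA per cell cannot be told apart, and the part of these marker differences in the results below was not tested.

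Of the 10 genes, 8 had a lower mean with TCQA, where 48.9% of all gene probe sets did, and the 2 with a higher mean were Nab2 and Srf. Both TCQA arrays were below both control arrays for 4 genes (Npas4, Nr4a1, Egr3 and Egr4), as for 17.8% of all gene probe sets, and above both for Nab2 and Srf, as for 18.9%. The groups overlapped for the other 4. A difference of over 2-fold was reached by 2 genes in the lower direction, Npas4 and Nr4a1, and by 1 in the higher direction, Nab2, where the shares of all gene probe sets were 0.216% and 0.27%. The median difference over the 10 was -0.33 on the log2 scale, against 0.0071 over all gene probe sets. Nothing is read from these counts, since the genes were chosen from this contrast.

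**Figure D2:**
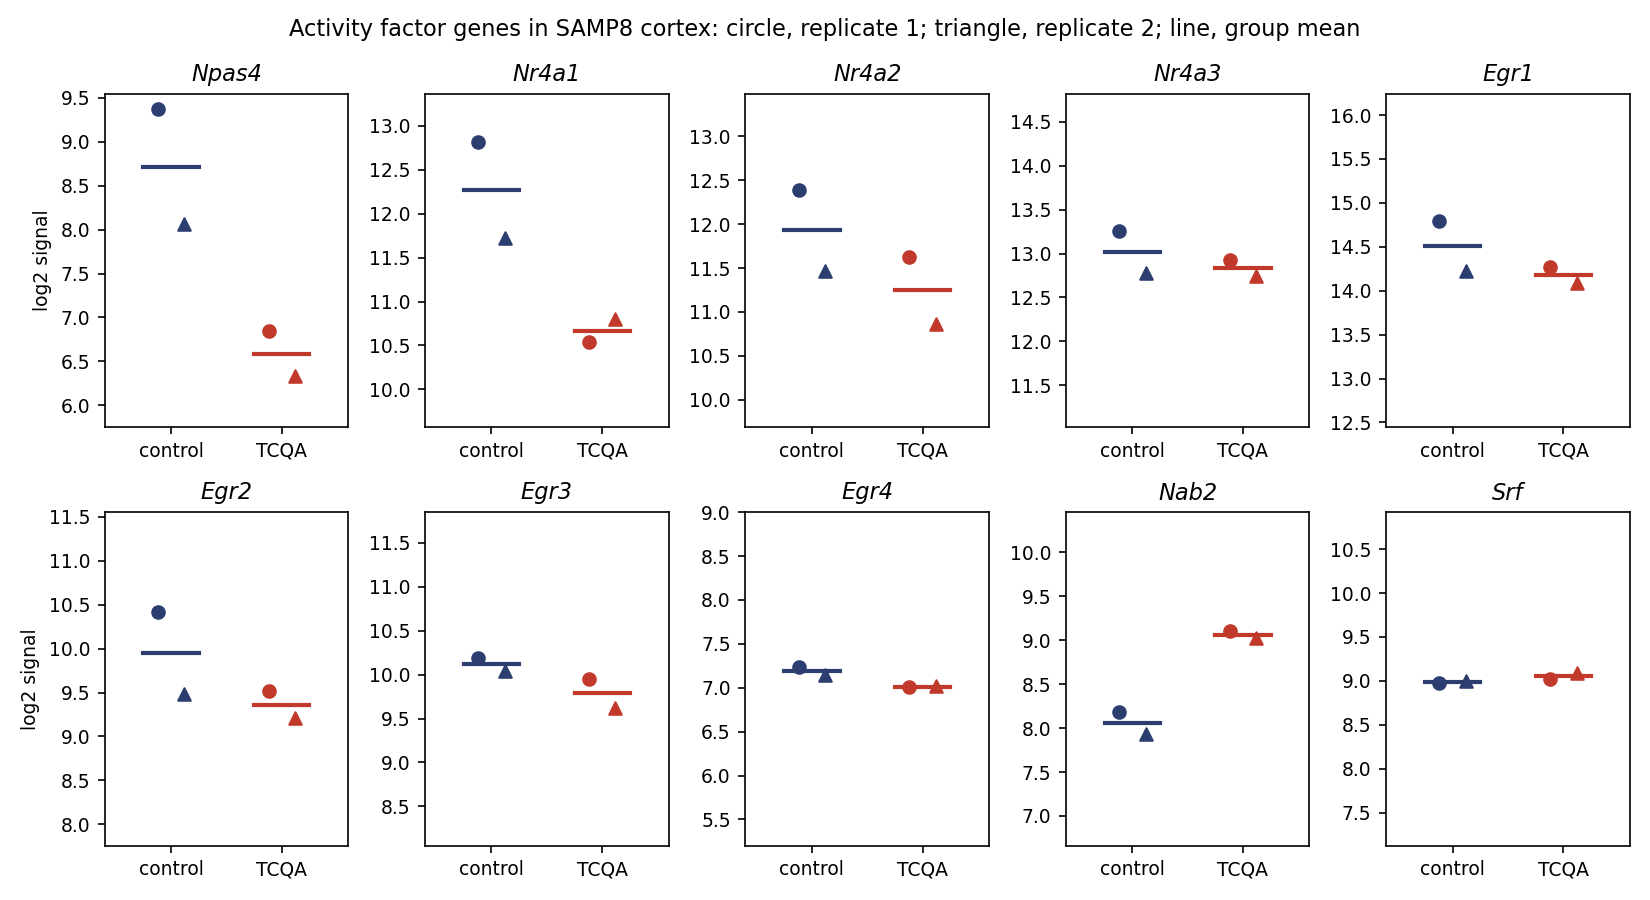
Log2 signal (y axis) of each of the 10 genes on the 4 arrays, control in blue and TCQA in red, with circles for replicate 1, triangles for replicate 2 and lines for group means. Every panel spans the same range of log2 units around its own centre, so the wide gaps of Npas4 and Nr4a1 and the narrow ones of Egr4 and Srf can be compared as differences, and Nab2 is the gene whose TCQA arrays stand clearly above control.

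Npas4 had the widest gap. Its log2 signal was 6.84 and 6.33 with TCQA, and 9.37 and 8.06 in control. Both TCQA arrays thus lay below both control arrays, by 1.22 between the nearest pair and by 3.04 between the farthest. The group means were 6.58 ± 0.36 and 8.72 ± 0.93 (SD, n = 2 each). They differed by -2.13 (SE 0.43), a 4.38-fold lower level with TCQA and the 4th lowest difference of the 22206. The signal was above the negative control median on the 2 control arrays and below it on both TCQA arrays. On control replicate 2 it was also below the upper quartile of the negative control probe sets (8.55). The TCQA level is thus dim, control replicate 2 is fairly dim, and the size of the fold is uncertain. Without control replicate 1 the difference was -1.48.

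The NR4A receptors differed in the size of their gap. Nr4a1 was at a log2 signal of 10.54 and 10.80 with TCQA against 12.81 and 11.73 in control, all far above the negative control median. The TCQA arrays were within 0.26 of each other and the control arrays 1.08 apart, and the groups did not overlap. The mean was 10.67 ± 0.18 with TCQA against 12.27 ± 0.77 for control (SD, n = 2 each). The difference of -1.60 (SE 0.36), or a 3.04-fold lower level, was the 8th lowest of all. Without control replicate 1 it was -1.06, the smallest value when each array was left out in turn, and without control replicate 2 it was -2.14.

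Nr4a2 was at 11.63 and 10.86 with TCQA and at 12.39 and 11.47 in control. The higher TCQA array lay above the lower control array, so the groups overlapped. The difference of the means was -0.68 (SE 0.38), with an SD of 0.54 within TCQA and 0.65 within control (n = 2 each), and it was -0.22 without control replicate 1 and -0.30 without TCQA replicate 2. Nr4a3, at 12.92 and 12.74 with TCQA and at 13.25 and 12.78 in control, had the smallest difference of the family, -0.18 (SE 0.22). Control replicate 1 alone stood above the TCQA arrays, and without it the difference was 0.052, on the other side of 0. Nr4a1 and Nr4a3 had the largest and the smallest difference of the 3 receptors. All 3 had 4 CRE cores in their windows, and whether the cores bear on these differences was not tested.

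Among the EGR factors Egr2 had the widest gap. Its signal was 9.52 and 9.21 with TCQA and 10.42 and 9.49 in control, where only control replicate 1 stood apart and control replicate 2 lay between the TCQA arrays. The difference was -0.59 (SE 0.33), and -0.13 without control replicate 1. Egr1, the EGR factor most often used as a marker of neuronal activity, was at 14.27 and 14.09 with TCQA and at 14.79 and 14.23 in control. Its groups overlapped, and the difference of -0.33 (SE 0.24) was -0.048 without control replicate 1.

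Egr3 gave a different answer with each of its 3 probe sets. The brightest was at 9.95 and 9.62 with TCQA and at 10.19 and 10.04 in control, with no overlap and a difference of -0.33 (SE 0.20). The second was at 8.35 and 8.18 with TCQA and at 8.21 and 7.66 in control, with overlap and a difference of 0.34 (SE 0.24). The third was at 7.18 and 6.23 with TCQA and at 7.17 and 6.67 in control, below the negative control median on all 4 arrays, with a difference of -0.21 (SE 0.35). The direction for Egr3 therefore depends on the probe set, and the mean over the 3 gave -0.068. Egr4 was at 7.00 and 7.02 with TCQA and at 7.24 and 7.15 in control, a difference of -0.18 (SE 0.17). Its groups did not overlap, yet its signal was below the negative control median of the same array on all 4 arrays, so its detection is doubtful.

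Nab2, the EGR corepressor, went the other way. Its log2 signal was 9.11 and 9.02 with TCQA and 8.19 and 7.93 in control. The replicates were close, within 0.085 and 0.26 of each other, and the nearest pair across groups was 0.84 apart. Both control signals were above the negative control median but below the upper quartile of the negative control probe sets (8.75 and 8.55 on those arrays). The control level is thus fairly dim. The mean was 9.07 ± 0.06 with TCQA against 8.06 ± 0.18 for control (SD, n = 2 each). That is 1.01 (SE 0.19) on the log2 scale, or 2.01-fold, higher, the 57th highest of the 22206. It was 0.88 to 1.14 when each array was left out in turn, and it was under 2-fold without TCQA replicate 1 (0.97), without control replicate 2 (0.88) and with quantile normalization (0.99). The gene model of Nab2 overlaps that of Stat6, an interleukin signalling factor, in RefSeq's GRCm38.p6. Stat6, looked up after the Nab2 values were seen, was at 7.61 and 7.10 with TCQA and at 8.02 and 8.19 in control, a difference of -0.75 (SE 0.23) opposite in sign to that of Nab2. Where the probes of either gene lie was not analysed here. Nab1, the other corepressor of the family, differed by -0.084 (SE 0.17).

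Srf was at 9.02 and 9.09 with TCQA and at 8.98 and 9.003 in control. Both TCQA arrays were above both control arrays, but by 0.021 between the nearest pair, and the difference of 0.063 (SE 0.17) was smaller than its error.

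**Figure D3:**
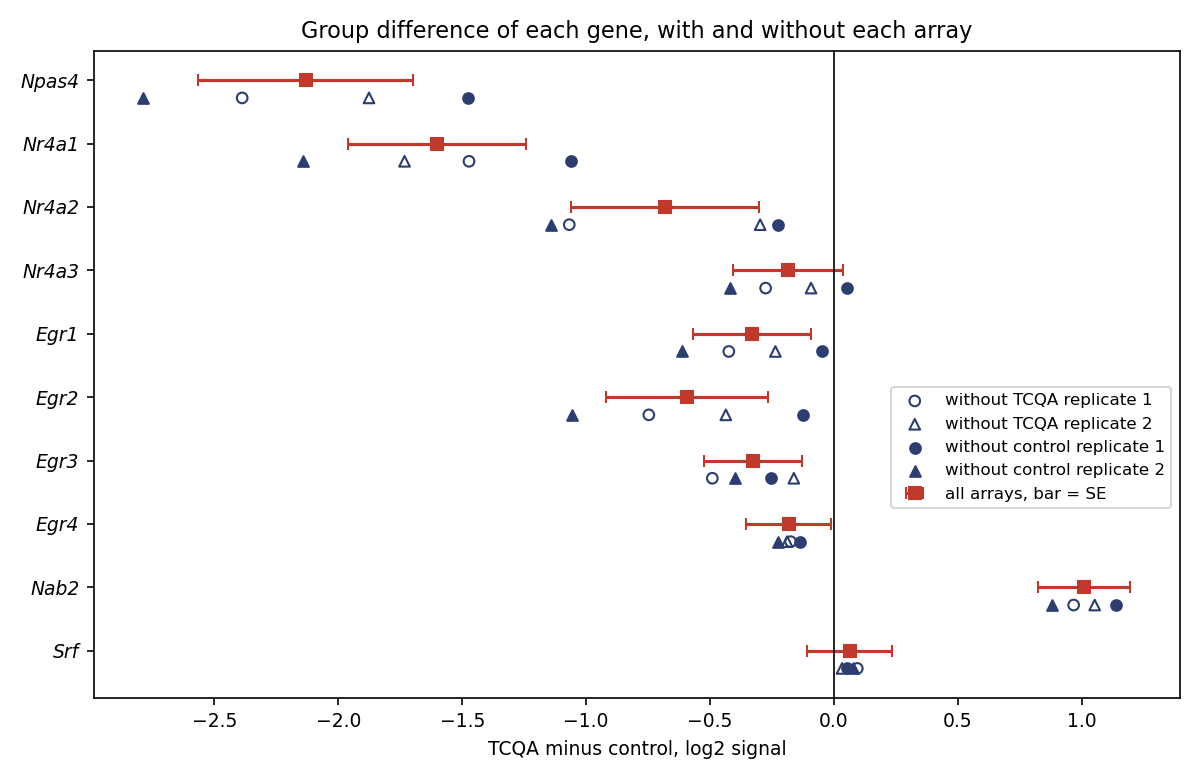
TCQA minus control difference in log2 signal (x axis) for each gene: red squares with bars are the difference over all 4 arrays and its SE, and the blue symbols under each are the differences without 1 array. Leaving out control replicate 1 (filled circles) brought each of the 8 lower genes except Egr3 closest to 0 and took Nr4a3 past it, while Nab2 kept 0.88 or more.

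Control replicate 1 was the highest of the 4 arrays for 8 of the 10 genes, which are all the genes with a lower mean. It was highest for 23.8% of all gene probe sets. It was above control replicate 2 for 9 of the 10, where this held for 48.1%. The gap between the control arrays was over 0.5 (log2) for 5 genes, Npas4, Nr4a1, Nr4a2, Egr1 and Egr2, and for 6.89% of all gene probe sets. The median gap, replicate 1 minus replicate 2 with its sign, was 0.52 over the 10 genes and -0.015 over all. A lower mean with TCQA makes a control array the likelier highest. The genes were also chosen from this contrast, so nothing is read from these counts. The TCQA arrays were closer to each other than the control arrays were, except for Egr3 and Srf. Their median gap, also with its sign, was 0.19. Without control replicate 1 the median difference of the 10 genes was -0.13, and without control replicate 2 it was -0.52. Where control replicate 1 is above control replicate 2, leaving replicate 1 out raises the difference by construction. These values therefore do not show how much of the lower level belongs to that array. With control replicate 1 left out, Npas4 and Nr4a1 were still 1.48 and 1.06 lower, and the differences of the other 6 lay between -0.25 and 0.052.

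**Figure D4:**
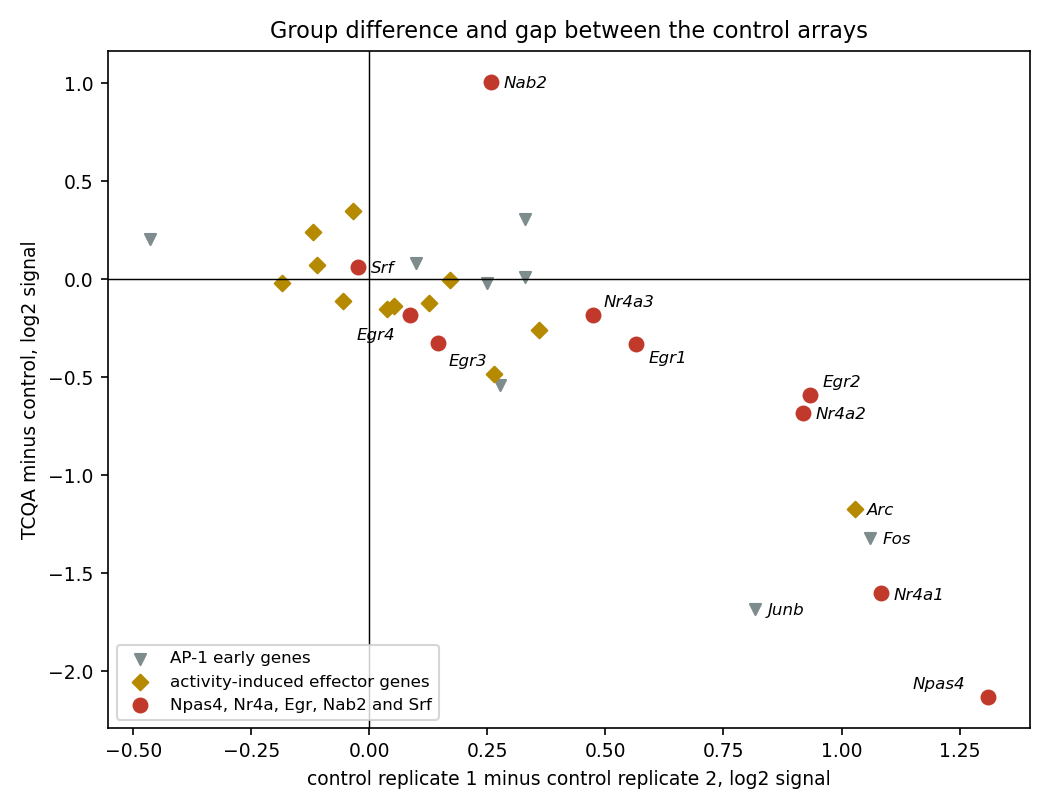
The gap between the control arrays (x axis) against the TCQA minus control difference (y axis), both in log2 signal, for the 10 genes in red, 8 AP-1 genes and 12 activity-induced effector genes. Npas4 and Nr4a1 lie at the lower right beside Fos, Junb and Arc, and Nab2 alone lies high; both axes use control replicate 1, so part of the slope is built in.

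The pathway around these factors was read from 9 lists with 75 measured genes of 83 listed, written with earlier results of these data known. By limma 0 of the 75 passed with adjustment over all genes. At an unadjusted p under 0.05 5 were lower and 1 was higher, 8% of the 75 against 6.24% of all gene probe sets (2.86% lower and 3.38% higher), and 4 also passed the depositors' criterion of a fold over 2, against 0.374%. The 4 were Junb, Fos and Arc, all lower, and Slc18a2, higher.

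Of the factors that switch the 10 genes on, 0 had an unadjusted p under 0.05. Of the SRF cofactors, the ternary complex and myocardin-related proteins that give SRF its signals, 2 of 5 had a lower mean and 3 a higher one, with a median of 0.17 and 0 at an unadjusted p under 0.05. Mrtfa differed by 0.41 (SE 0.22) and Mrtfb by 0.23 (SE 0.18). Of the CREB and MEF2 factors and their coactivators, 7 of 10 had a lower mean, with a median of -0.071 (0.10 without TCQA replicate 2) and 0 at that p. The histone acetylase gene Crebbp was at 14.21 and 14.12 with TCQA and at 14.56 and 14.43 in control, a difference of -0.33 (SE 0.18), and Creb1 differed by -0.22 (SE 0.18). The calcium and ERK pathway genes that signal to these factors had a median of -0.043 over 11 genes, 7 of them with a lower mean and 0 at that p. Their smallest p values were those of the ERK-activating kinase gene Map2k2, at 0.37 (SE 0.18), and the calcium-dependent kinase gene Camk2b, at 0.28 (SE 0.17). Camk2a, a sister of Camk2b named after its values were seen, had the opposite sign, at -0.28 (SE 0.17).

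Of the dimer partners and corepressors 5 of 6 had a lower mean, with a median of -0.17, which was -0.046 without TCQA replicate 2, and 0 at an unadjusted p under 0.05. Rxrb, a retinoid X receptor that belongs to the family NR4A1 and NR4A2 pair with, differed by -0.32 (SE 0.18), and Arnt2, the partner of NPAS4 in neurons, by -0.25 (SE 0.18). The structural relatives, other PAS factors and the EGR-like zinc finger gene Wt1, had a median of 0.096 (-0.18 without TCQA replicate 2) with 2 of 6 lower and 0 at that p. Npas1 differed by 0.25 (SE 0.20) and Sim1 by 0.47 (SE 0.33), both dim.

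Among early genes outside the 10, Junb, Fos and Arc were over 2-fold lower with TCQA. Of 8 AP-1 genes 4 had a lower mean, with a median of -0.0030 (0.098 without TCQA replicate 2 and 0.040 without control replicate 1), and 3 were lower at an unadjusted p under 0.05. Junb was at 8.81 and 8.44 with TCQA and at 10.71 and 9.90 in control, a difference of -1.68 (SE 0.31), and Fos at 8.23 and 8.10 against 10.01 and 8.95, one of -1.32 (SE 0.35). The limma adjusted p was 0.787 for each. Without control replicate 1 Junb differed by -1.27 and Fos by -0.79, below the 2-fold line. With TCQA, both Fos signals and that of Junb on replicate 2 were below the upper quartile of the negative control probe sets (8.57). Jun, the third AP-1 gene at that p, was at 8.84 and 8.77 with TCQA and at 9.48 and 9.20 in control, where the groups did not overlap, a difference of -0.54 (SE 0.19). Fosb, a sister of Fos, was at 8.37 and 8.15 with TCQA and at 8.40 and 8.15 in control, while Jund differed by 0.31 (SE 0.20) and Fosl1 by 0.20 (SE 0.22). Jun, Fosb, Jund and Fosl1 were named after their values were seen.

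Among 12 activity-induced effector genes 9 had a lower mean, with a median of -0.12 that was -0.014 without TCQA replicate 2, and 2 were lower at an unadjusted p under 0.05. Arc, a known target of EGR factors and SRF that regulates AMPA receptor traffic, was at 10.29 and 9.62 with TCQA and at 11.64 and 10.61 in control, a difference of -1.17 (SE 0.39, limma adjusted p = 0.787) that was -0.66 without control replicate 1 and -0.84 without TCQA replicate 2. The salt-inducible kinase gene Sik1 differed by -0.49 (SE 0.20). The NPAS4 targets Bdnf, Nptx2 and Plk2, named because NPAS4 had the widest gap, differed by -0.11 (SE 0.20), -0.0015 (SE 0.18) and -0.15 (SE 0.19).

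Dopamine neuron genes that NR4A2 is known to switch on were dim in this cortex, with 2 of 6 above the negative control median. Their mean was higher in 6 of 6, with a median of 0.43 that was 0.22 without TCQA replicate 2. Most of these differences thus lie near background and are uncertain in size. The mean of Nr4a2 itself was lower, with overlapping groups, and a link to these genes was not tested. Only 1 of the 6 was higher at an unadjusted p under 0.05. That gene, the vesicular monoamine transporter gene Slc18a2, was at 7.36 and 7.73 with TCQA and at 6.66 and 6.17 in control, a difference of 1.13 (SE 0.24, limma adjusted p = 0.787), which was under 2-fold without control replicate 2 (0.88) and without TCQA replicate 2 (0.94). Both control arrays lay below their negative control median, so its control level is dim and the size of the fold is uncertain, as for Npas4 with TCQA. Ddc, the decarboxylase that makes dopamine, was at 6.46 and 7.38 with TCQA and at 6.39 and 6.17 in control, a difference of 0.64 (SE 0.32) that was 0.18 without TCQA replicate 2 and 1.10 without TCQA replicate 1. Th, the rate-limiting enzyme of dopamine synthesis and a gene named after its values were seen, was at 9.42 and 7.36 with TCQA and at 7.74 and 7.46 in control, a difference of 0.79 (SE 0.61). Its higher mean came from TCQA replicate 1, and TCQA replicate 2 was below both control arrays. The cytoskeletal targets of SRF had a median of 0.074 over 11 genes, 4 lower and 7 higher, with 0 at an unadjusted p under 0.05. Tpm4, a tropomyosin, differed by 0.25 (SE 0.21) and the smooth muscle actin gene Acta2 by 0.43 (SE 0.36), the latter -0.13 without TCQA replicate 2.

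**Figure D5:**
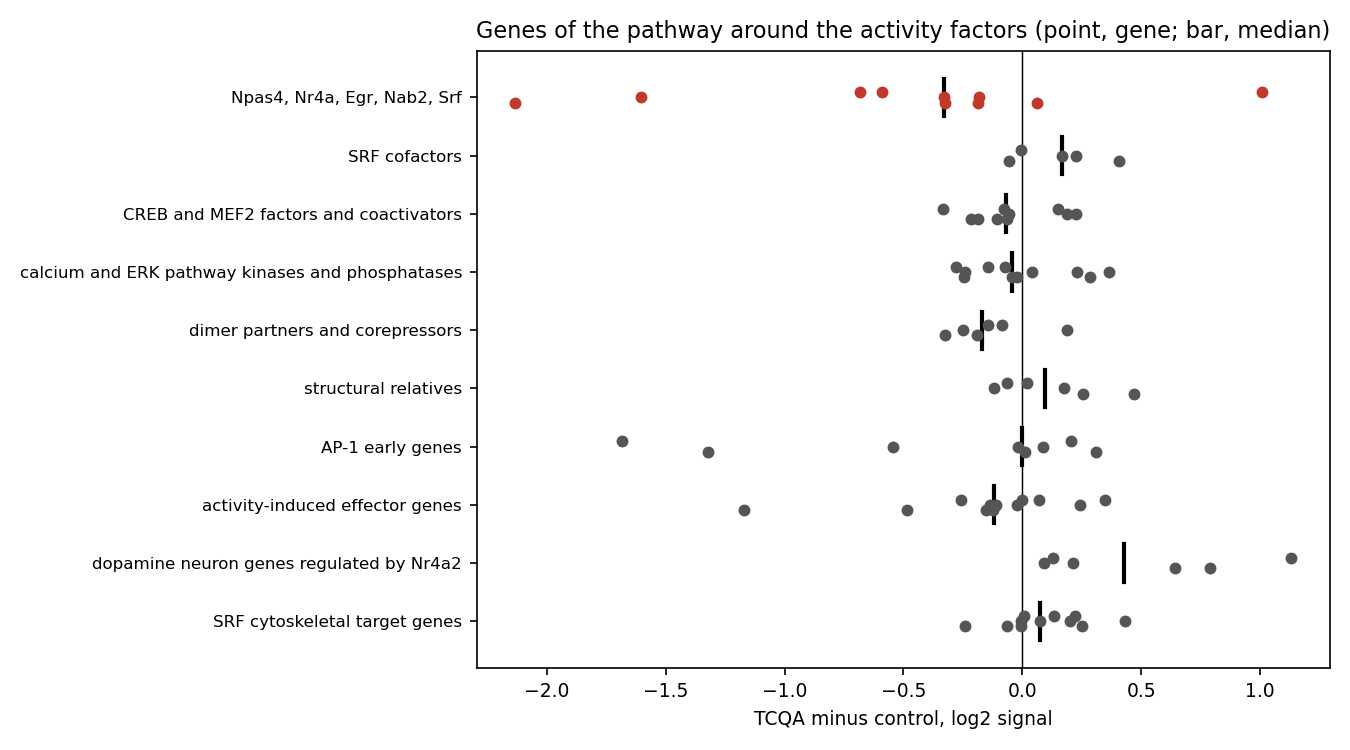
TCQA minus control difference in log2 signal (x axis) of each gene in the 10 genes (red) and the 9 pathway lists (grey), with a black bar at each median. The upstream lists lie within 0.5 of 0, and 2 AP-1 genes (Junb and Fos) and 1 effector gene (Arc) lie at -1 or lower. The dopamine neuron genes, most of them dim, all lie above 0.

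The mean profile of the 10 genes over the 4 arrays, each gene centred on its own mean, was compared with that of 9794 other named probe sets that were no dimmer than the median. The closest 5 by root mean square difference in log2 units were Tmem62 (0.0302), Garre1 (0.0502), Zfp236 (0.0529), Zfp512b (0.0538) and Mark3 (0.0548). The profile they were matched to is highest on control replicate 1. Tmem62, the closest, was at 8.49 and 8.30 with TCQA and at 9.23 and 8.57 in control, a difference of -0.50. With 4 arrays many genes can come this close, and the profile of a mean over 10 genes is flatter than that of Npas4 or Nr4a1.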

How the data were processed

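Cortex RNA was read on 4 Clariom S mouse arrays, 2 for TCQA and 2 for control, grouped by sample title. Per the labels' protocols, the authors amplified 100 ng of RNA and made log2 signals, 1 per probe set, with SST-RMA in the Transcriptome Analysis Console (version 4.0.2), and named limma with a criterion of p under 0.05 and a fold over 2. The deposited log2 values were used as they are. The 6640 control probe sets were left out of the tests and the 22206 others kept. GEO's platform annotation named 19572 of these with 1 symbol, 0 with several, and left 2634 unnamed here. The genome build of the array's annotation was not used here. TCQA was set against control in R 4.3.3 with limma 3.58.1 (lmFit and eBayes, two-sided, Benjamini-Hochberg over all 22206), and each SE comes from that fit, with 2 residual and 4.23 prior degrees of freedom. The procedure was tested on simulated data. The brightest probe set stands for a gene with several. In place of depth, the negative control medians were 7.17 to 7.32, and the few arrays limit the precision.

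The 10 genes, the pathway and marker lists, the tests and the alternatives were chosen with earlier results of these data known. The rule for named genes took all 10, from each pathway list the 2 with the smallest p and any past the criterion, the 5 genes closest in profile (named, at or above the median signal of 7.14, no predicted symbol), and Ttr with any marker a result turned on. Upstream sequences are RefSeq's. Alternatives left out moderation, dim probe sets or 1 array, changed the normalization, the prior or the probe set rule, or added the replicate number as a block.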

Additional observations from a re-analysis of the deposited data

How the results depend on the processing

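Median centring, quantile normalization and a prior with a trend kept each of the 10 genes on its side of 0, as did every other alternative except leaving out control replicate 1, where Nr4a3 was at 0.052 (-0.42 to 0.052 with each array left out). Egr4 was left out with the dim probe sets. The median difference of the 10 genes was -0.52 to -0.13 when 1 array was left out, and the number whose groups did not overlap, TCQA being lower, was 4 to 8. With fewer arrays the groups separate more easily. The share of all gene probe sets that did so was not counted there, so nothing is read from the 4 to 8. Probe sets past the depositors' criterion numbered 83, and 25 without moderation, 36 among probe sets at or above the median signal, and 160 to 291 with 1 array left out. With 3 arrays a group of 1 is assumed to vary like the other group. Pathway genes past the criterion numbered 4, and 0 without moderation and 2 to 5 with 1 array left out. The list median of the structural relatives was -0.092 among the brighter probe sets. With 1 array left out it was -0.18 to 0.23, that of the CREB and MEF2 list -0.22 to 0.10, that of the AP-1 list -0.15 to 0.10, that of the dimer partners -0.24 to -0.046, that of the effector genes -0.21 to -0.014, that of the dopamine neuron genes 0.22 to 0.47, that of the calcium and ERK list -0.056 to -0.0022, that of the cytoskeletal targets 0.018 to 0.097 and that of the SRF cofactors 0.15 to 0.20. The cause of these moves was not tested. The labels number the replicates alike in both groups, but nothing pairs them, and the deviations of same-numbered arrays correlated at 0.051 across genes. With the replicate block 92 probe sets met the criterion and 4 pathway genes did. Egr4 and the dimmest Egr3 probe set had no signal above the negative control median.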
